A study of Mus musculus with 6 samples.

Results

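The transcriptome described here is that of the cerebral cortex of wild-type mice (labelled WT) aged 12 months, measured in 3 of the 6 RNA-seq libraries of a study of the gene Fam69c. Members were chosen by their label alone: the columns WT 1, 2 and 3 were used with all 54532 rows of the table, and the other 3 columns were not used. The labels give these mice no treatment, sex or strain, and leave unstated whether the libraries stand for 3 animals. The SD over the 3 libraries therefore measures the spread between libraries, and with 1 group there is no test. Values are FPKM, a fragment count scaled by gene length and by a factor close to library size. Levels of different genes are thus compared per length throughout.

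The cortex is a layered sheet of excitatory neurons that release glutamate and a smaller number of inhibitory neurons that release GABA. Astrocytes take up transmitter, oligodendrocytes wrap axons in myelin, microglia are the resident immune cells, and endothelium and mural cells form the vessels. RNA of a whole piece of cortex mixes all of these. A level in such a bulk sample cannot separate the number of cells of a type from the RNA each cell holds.

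The libraries held 31612849, 30935326 and 32707769 reads, as recovered from the deposited values, and 25973, 25630 and 26423 genes above 0 FPKM. The deposited FPKM of replicates 1, 2 and 3 were 1.012, 1.008 and 0.986 times those that these reads alone would give. The part of this factor in the lower values of replicate 3 was not tested. WT replicate 3 stood apart from the other two. The median absolute log2 difference over genes at 1 FPKM or more was 0.08 between replicates 1 and 2, 0.12 between 1 and 3, and 0.12 between 2 and 3. The 10 genes of a list that marks striatal neurons were lower in replicate 3, and immediate early genes were higher there, as given with their values further on. The gene named by the study, Fam69c, which encodes a kinase-like protein of the secretory pathway, read 2.03, 1.57 and 2.08 FPKM in replicates 1, 2 and 3 and stood at rank 11416 of all genes. Values listed together for a gene are in that order of replicates.

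A mean of at least 1 FPKM was reached by 13474 genes, 24.7% of all rows, of which 11834 code for protein (53.7% of the 22046 protein coding rows). A mean of at least 10 FPKM was reached by 4862 genes, 100 FPKM by 343 and 1000 FPKM by 12. In all 3 libraries 24686 genes (45.3%) were listed at 0, including 4344 protein coding genes (19.7%). A further 7245 genes were listed at 0 in some libraries and above 0 in others. At 1 FPKM the libraries alone gave 13433, 13407 and 13581 genes, and 12794 genes reached it in every one of them.

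The RNA was concentrated in few genes. The single highest gene held 3.09% ± 0.104 of the summed FPKM (SD, n = 3 libraries, as for every ± here), the 10 highest 12.5% ± 0.539, the 100 highest 26.5% ± 0.705 and the 1000 highest 56.0% ± 1.04. By share of reads, which is not divided by gene length, the 100 highest genes held 16.7% ± 0.222. A set of 698 genes accounted for 50% of the summed FPKM, and 1064 genes for 50% of the reads. Of the 10 highest genes, 8 belonged to the mitochondrial genome. Of the 20 highest, 10 were mitochondrial and 9 were nuclear protein coding genes. The remaining gene was Gm23935, a short row annotated as a miRNA that is described with the noncoding genes.

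**Figure D1:**
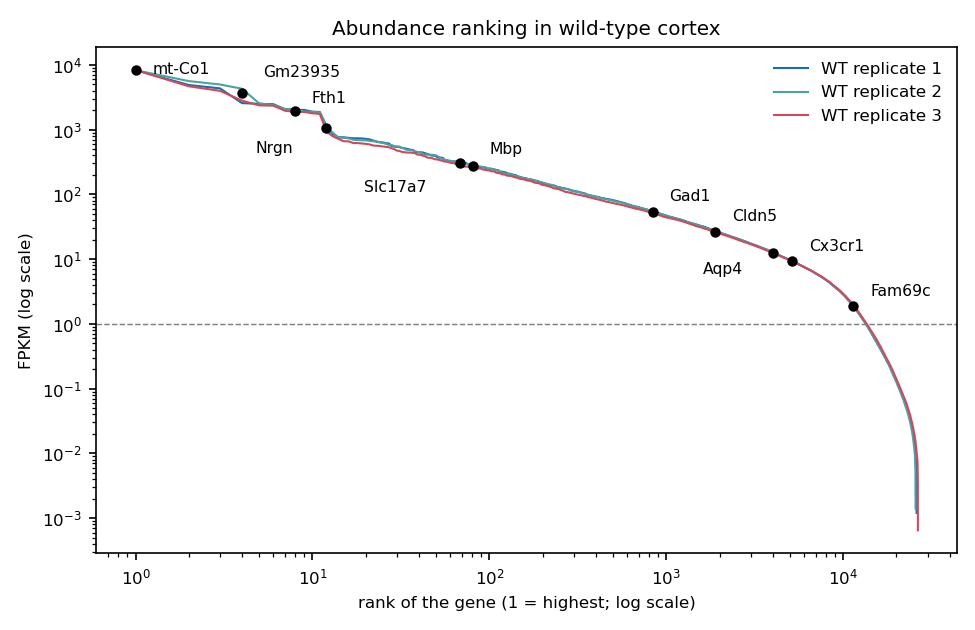
FPKM of each gene (vertical log axis) against its rank from highest to lowest within each library (horizontal log axis), 1 line per wild-type library, with black points for named genes at their mean FPKM and rank by mean and a dashed line at 1 FPKM. The 3 lines nearly coincide, mt-Co1 leads at rank 1, the 6 cell type markers lie between Slc17a7 and Cx3cr1, and Fam69c lies just above the dashed line.

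Among nuclear protein coding genes the highest was Fth1, the heavy chain of the iron store ferritin, at 2013, 2073 and 1749 FPKM. Nrgn followed at 1146, 1091 and 937 FPKM. It encodes neurogranin, a postsynaptic protein of excitatory neurons that binds calmodulin without calcium. Calm2, one of the genes that encode the identical calmodulin protein, read 859, 900.2 and 792 FPKM. These leaders were separated: the libraries of Fth1 and Nrgn, of Nrgn and Calm2, and of Calm2 and the next gene, Cpe, did not overlap. Cpe, carboxypeptidase E, which trims peptide hormones, read 763, 757 and 720.0 FPKM.

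Below them the order was not resolved. For 16 of the 20 highest nuclear coding genes the range over libraries overlapped that of the next gene in the ranking. Energy metabolism was represented by the cytochrome oxidase subunits Cox8a at 705 ± 88.6 FPKM and Cox6a1 at 511 ± 59.4 FPKM, the brain creatine kinase Ckb at 672 ± 54.9 FPKM and the glycolytic enzyme Aldoa at 585 ± 25.2 FPKM. Translation was represented by the ribosomal stalk protein Rplp1 at 699.9 ± 69.4 FPKM and the elongation factors Eef1a2 at 628 ± 31.4 FPKM and Eef1a1 at 598 ± 54.7 FPKM. Of this pair, Eef1a2 is the form known for neurons and muscle. Calcium signalling was represented by Calm2, Calm3 at 673 ± 45.9 FPKM and Camk2n1, an inhibitor of the kinase CaMKII, at 694 ± 37.4 FPKM.

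Genes known for glia and secretion also stood in this group. Apoe, the lipid carrier released mainly by astrocytes, read 636, 583 and 549 FPKM, and Cst3, the protease inhibitor cystatin C, read 681, 669.9 and 569.7 FPKM. Sparcl1, the matrix protein hevin, read 547, 522 and 542 FPKM, and Psap, the precursor of the saposins of the lysosome, read 617, 603 and 559.9 FPKM. Selenow, a small selenoprotein, had the largest CV among the 20, 19.5%, with 732, 698 and 499 FPKM. The chaperone Hsp90ab1 read 538, 556 and 474 FPKM. In 19 of these 20 genes replicate 3 was the lowest library, and Sparcl1 was the exception. Over all 13474 genes at 1 FPKM or more, replicate 3 was the lowest in 42.8%.

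The mitochondrial genome encodes subunits of the respiratory chain, 2 ribosomal RNAs and 22 transfer RNAs. Its 37 genes held 11.9% ± 0.178 of the summed FPKM and 3.78% ± 0.0324 of the reads. The highest gene of the whole table was mt-Co1, the catalytic subunit of cytochrome oxidase, at 8309.8, 8283 and 8334 FPKM, with a CV (SD over mean) of 0.307%. Cytochrome b, mt-Cytb, read 4886, 4984 and 4668 FPKM, and mt-Nd1, of complex I, read 4339, 4282 and 3977 FPKM. The ranges of these 3 did not overlap. mt-Nd2, also of complex I, read 2466 ± 103 FPKM, and its range overlapped that of the next gene, mt-Rnr1. The ribosomal RNAs mt-Rnr1 and mt-Rnr2 read 2447 ± 106 and 1934 ± 78.9 FPKM. The complex I genes mt-Nd4 and mt-Nd5 read 2032 ± 64.5 and 1836 ± 42.8 FPKM. The only protein gene of the opposite strand, mt-Nd6, read 1895, 1880.0 and 1879 FPKM. Handling of strand by the counting is not given in the sources used here, so its reads cannot be told from those of RNA transcribed across it on the other strand.

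A second group of mitochondrial protein genes was far lower. The cytochrome oxidase subunit mt-Co2 read 128, 145 and 128 FPKM, and mt-Co3, of the same enzyme, read 141, 65 and 56.6 FPKM. The ATP synthase subunit mt-Atp6 read 158, 94.4 and 104 FPKM. The complex I genes mt-Nd4l and mt-Nd3 read 139, 126 and 44.6 and 7.36, 8.80 and 7.19 FPKM. What these 5 share is sequence that occurs elsewhere: between 98.0% and 100% of their windows of 50 bases were also present in another gene of the GENCODE M21 transcripts. The partners were pseudogenes of chromosome 1, nuclear copies of mitochondrial DNA that lie side by side and were picked here after their values were seen. They read 125 FPKM (Gm28661, for mt-Co2), 76.05 FPKM (Gm10925, for mt-Atp6), 68.3 FPKM (Gm28437, for mt-Co3), 84.9 FPKM (Gm28438, for mt-Nd3) and 28.9 FPKM (Gm10222, for mt-Nd4l).

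Exceptions were seen. mt-Co1 and mt-Nd4 stayed high with 51.1% and 62.2% of windows shared. mt-Atp8 was low, at 19.8, 3.99 and 2.96 FPKM, with 0% shared. Windows were compared with annotated transcripts only, so 0% does not show that no copy exists elsewhere in the genome. mt-Atp8 (bases 7766 to 7969) lies next to 2 of the low genes, mt-Co2 (7013 to 7696) and mt-Atp6 (7927 to 8607). mt-Atp8 is a short gene of 126, 25 and 20 reads. Treatment of reads with several matches is not given in the sources used here, so the level of these 5 genes and of their copies is uncertain, and the part that shared sequence plays was not tested.

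**Figure D2:**
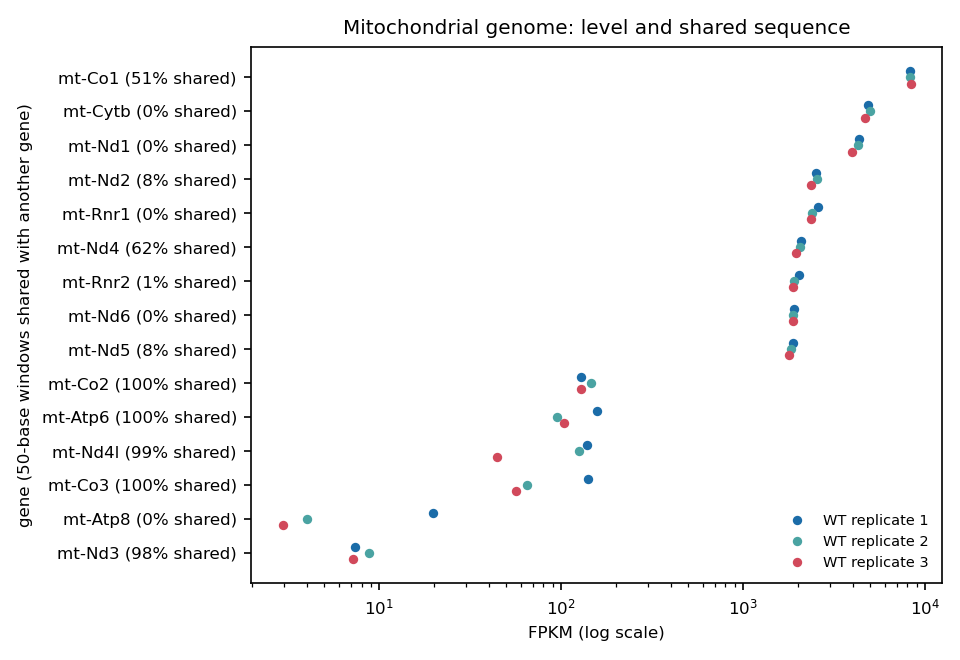
FPKM (horizontal log axis) of the 13 protein genes and 2 ribosomal RNAs of the mitochondrial genome in each wild-type library, 1 point per library, ordered by mean, with the percent of 50-base windows shared with another gene beside each name. The upper 9 genes lie above 1000 FPKM in every library, and 5 of the 6 genes below share nearly all of their windows.

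The levels of 6 cell type markers were read. They mark cell types that other brain regions also hold, so their presence does not check the cortex label. Slc17a7, the vesicular glutamate transporter of cortical excitatory neurons, read 310.2, 299 and 306 FPKM. Mbp, myelin basic protein of oligodendrocytes, read 283, 298 and 234 FPKM. Gad1, the enzyme that makes GABA, read 54.2, 56.1 and 50.7 FPKM. In mm10 the neuronal pair lies at chromosome 7, 45163949 to 45176142 (Slc17a7) and chromosome 2, 70553072 to 70602014 (Gad1), both on the plus strand. All 6 markers were present at well above 1 FPKM in every library. Cldn5, the tight junction protein of brain endothelium, read 28.7, 22.9 and 28 FPKM, Aqp4, the water channel of astrocytes, 12.5, 11.6 and 13.6 FPKM, and Cx3cr1, the fractalkine receptor of microglia, 9.35, 9.92 and 8.72 FPKM. Cldn5 lies at chromosome 16, 18776847 to 18778262, plus strand, and Cx3cr1 at chromosome 9, 119901616 to 120069879, minus strand. In order of level no neighbouring ranges overlapped. The Slc17a7 and Mbp means lay about 1 SD of Mbp (33.2 FPKM) apart, and the ratio between them was 1.10, 1.00 and 1.30 in the 3 libraries. Slc17a7 had a CV of 1.78% and Mbp one of 12.2%.

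Excitatory neuron genes were high and close between libraries. All 9 listed members reached 1 FPKM, with a median member at 38.9 FPKM and a median CV of 4.02%. The median CV was 5.04% over all genes from 30 to 100 FPKM and 7.001% over all at 1 FPKM or more. Camk2a, the alpha subunit of CaMKII, read 448, 411 and 434 FPKM, and Nrn1, the growth factor neuritin, read 69.8 FPKM. The transcription factors Tbr1, Neurod2 and Neurod6 read 39.1, 38.9 and 32 FPKM. The subcortical transporter Slc17a6 was the lowest member at 3.72 FPKM, and Slc17a7 made up 98.5% ± 0.156 of the FPKM of the 3 vesicular glutamate transporters.

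All 13 genes that mark cortical layers were at or above 1 FPKM, from Calb1 at 22.02 FPKM to Foxp2 at 1.26 FPKM. Genes known for the same layer went both ways in replicate 3. Of upper layer genes, Rasgrf2 read 17.1, 14.5 and 20.97 FPKM and was highest in replicate 3, while Calb1 read 22.9, 22.7 and 20.4 FPKM and was lowest there. Of layer 5 genes, Fezf2 read 12.5, 15.4 and 17.1 FPKM and Bcl11b 15.9, 16.8 and 10.3 FPKM, again highest and lowest in replicate 3. The layer 6 genes Ntsr1 and Tle4 were likewise highest and lowest there, at 1.71, 1.98 and 2.65 FPKM and 17.9, 18.4 and 15.2 FPKM. In the list, replicate 3 was the highest library for 6 members and the lowest for 6 others, and the summed level was 131, 131 and 128 FPKM. A bulk level cannot assign these genes to cortical neurons alone, and replicate 3 was also low in the striatal neuron genes given below. Whether these patterns are linked was not tested.

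The inhibitory neuron list reached 1 FPKM in 10 of 11 members, and Adarb2 was just below at 0.996 FPKM. Sst, the peptide somatostatin, led it at 259, 236 and 239 FPKM. Lamp5 read 75.2, 76.6 and 75.5 FPKM and Pvalb, the calcium buffer parvalbumin, 62.7, 64.98 and 52.7 FPKM. Vip, of another interneuron class, was lower at 11.8, 11.8 and 15.7 FPKM. The ranges of these 4 genes did not overlap. These levels are per gene and do not give the numbers of the interneuron classes.

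Astrocyte genes were led by Glul, glutamine synthetase, at 521, 511 and 454 FPKM, Aldoc at 267, 244 and 211 FPKM and the glutamate transporter Slc1a2 at 209, 207 and 217 FPKM. The lowest of the 11 members was the transcription factor Sox9 at 9.79 FPKM. Gfap, the filament protein that rises in reactive astrocytes, read 36.6, 34.7 and 38.6 FPKM. Oligodendrocyte genes summed to 813, 894 and 678 FPKM, and all 10 were lowest in replicate 3, against 42.8% of all genes at 1 FPKM or more. Mobp, a protein of compact myelin, read 97.4, 105 and 78.4 FPKM, down to Opalin at 5.68 FPKM. The list for precursors of that lineage had a lower median member, 4.27 against 52.3 FPKM. Its highest member, Olig1, at 61.7 FPKM, was not lower than that. Sox10 read 17.01 FPKM and the precursor receptor Pdgfra 4.16 FPKM. Olig1 and Sox10 are not limited to precursors.

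Microglia genes all reached 1 FPKM. The complement genes C1qa and C1qb led the list at 44.7, 42.5 and 32.99 FPKM and 41.3, 43.7 and 31.5 FPKM, and the protease Ctss read 34.5 FPKM. Trem2, a lipid receptor of these cells, was the lowest of the 12 at 2.36 FPKM. Replicate 3 was the lowest library for 8 of the 12, against 42.8% of all genes at 1 FPKM or more. The endothelium list ran from Cldn5 to the receptor Tek at 2.01 FPKM, with the glucose transporter Slc2a1 at 25.3 FPKM. Replicate 3 was the highest library for 6 of its 10 members, against 36.6% of all genes at 1 FPKM or more. Mural cell genes were led by Vtn at 30.1 FPKM and Rgs5 at 13.2 FPKM, while the smooth muscle genes Myh11 and Tagln read 0.534 and 0.0914 FPKM.

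Genes of cells that lie next to the cortex were mostly low. The choroid plexus list summed to 3.31, 4.63 and 3.72 FPKM, of which Ttr, the thyroid hormone carrier, was 2.67 FPKM on average. The ependyma list summed to 5.26, 5.02 and 4.54 FPKM and the meningeal fibroblast list to 9.54, 10.1 and 10.1 FPKM. Blood was visible through haemoglobin: Hbb-bs read 61.02, 62.5 and 57.8 FPKM and Hba-a1 43.4, 46.8 and 40.4 FPKM. Genes of blood leukocytes were near 0, with a sum of 1.71, 0.706 and 1.24 FPKM, and Ly6g of neutrophils was listed at 0 in every library. Lists for the dentate gyrus, thalamus and olfactory bulb summed to means of 3.03 ± 0.477, 4.02 ± 0.251 and 1.94 ± 0.330 FPKM.

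Striatal neuron genes were the exception, and they divided the libraries. The striatum lies directly beneath the cortex. Its list of 10 genes summed to 455, 469 and 159.5 FPKM, with replicate 3 at 0.345 of the mean of replicates 1 and 2. Replicate 3 was the lowest library for 10 of 10, against 42.8% of all genes at 1 FPKM or more. Penk, the enkephalin precursor, read 141, 150.1 and 49.8 FPKM, and Ppp1r1b, the dopamine signalling protein DARPP-32, read 126, 123 and 48.3 FPKM. The dopamine receptors Drd1 and Drd2 read 11.8, 11.8 and 4.59 FPKM and 18.6, 20.2 and 4.77 FPKM. In each of these 4 genes replicates 1 and 2 were close and replicate 3 was apart. Adora2a, the adenosine receptor of the indirect pathway, read 21.99, 20.6 and 5.20 FPKM. Cortical neurons also express several of these genes, Penk among them, and the contribution of striatal tissue to any library was not tested.

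**Figure D3:**
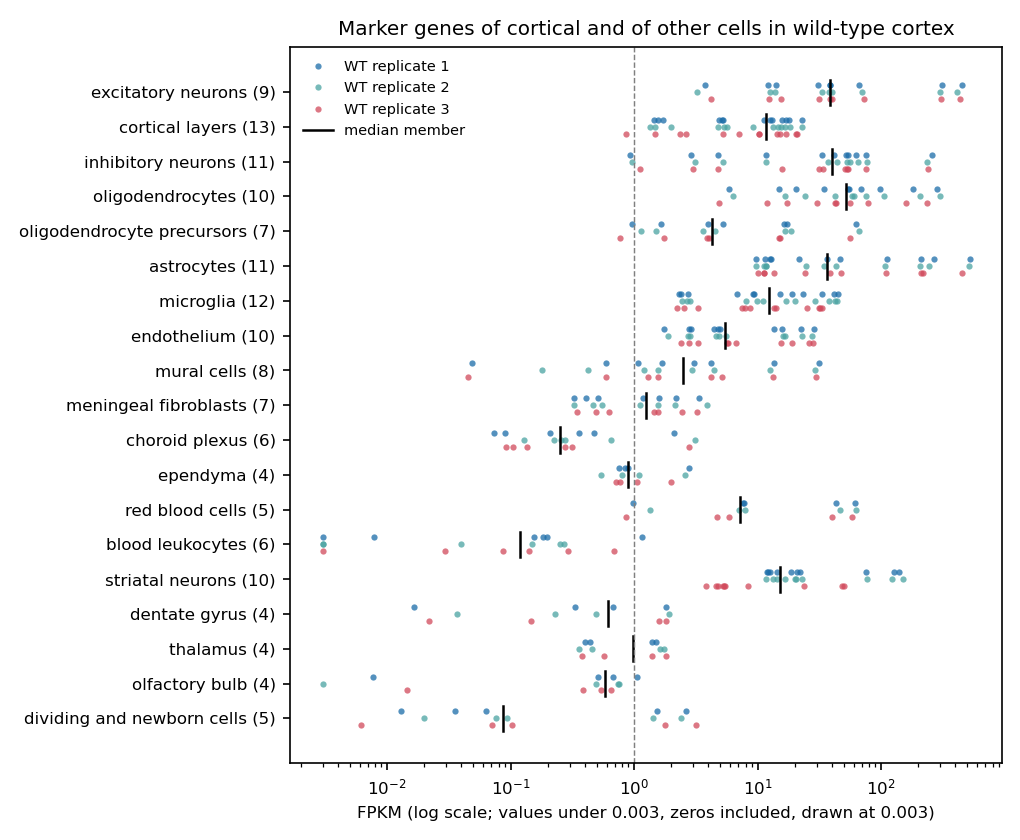
FPKM (horizontal log axis) of the members of 19 marker lists, with the number of members in brackets, 1 point per gene and library, a black bar at the median member and a dashed line at 1 FPKM. The median members of the excitatory neuron, inhibitory neuron, oligodendrocyte and astrocyte lists lie above 30 FPKM, those of the choroid plexus, ependyma, leukocyte, dentate gyrus, thalamus and olfactory bulb lists below 1 FPKM, and the striatal list is shifted to lower values in replicate 3.

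Genes of the synaptic vesicle and its release machinery had the smallest median CV of all lists. All 14 lay between 72 FPKM (Sv2b) and 402 FPKM (Snap25), with that CV at 2.99% and a sum of 3117, 3108 and 2983 FPKM. The SNARE protein Snap25 read 396, 412 and 396 FPKM, its vesicle partner Vamp2 335, 319 and 313 FPKM, and the clamp Cplx1 396, 408 and 368 FPKM. The calcium sensor Syt1 read 186, 187 and 185 FPKM.

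For receptors, the shares of each family's members were close between libraries. Among the AMPA receptor genes Gria1 held 39.3% ± 2.63 of the family's FPKM, Gria2 26.9% ± 0.809, Gria3 20.9% ± 0.942 and Gria4 12.9% ± 0.901. Among the NMDA receptor GluN2 genes Grin2b held 35.6% ± 0.180, Grin2c 30.3% ± 0.875, Grin2a 25.9% ± 0.949 and Grin2d 8.26% ± 0.329. These orders depend on division by gene models of unlike length: 5037 bases for Grin2c, 17933 for Grin2a, 6043 for Gria1 and 15548 for Gria2. In replicate 1, Grin2a had 6249 reads against 2175 for Grin2c, and Gria2 had 17629 against 10695 for Gria1. Both pairs thus reversed by reads, as in the other libraries, so the shares do not give the make-up of the receptors. The obligate NMDA subunit Grin1 read 47.2, 44.99 and 47.2 FPKM. By FPKM, the kainate receptor gene Grik5 and Gria1 were the highest of the 15 ionotropic glutamate receptor genes. Grik5 read 55.3, 53.7 and 57.8 FPKM and Gria1 56.7, 55.3 and 47.8 FPKM. Their ranges overlapped, with Gria1 higher in replicates 1 and 2 and Grik5 higher in replicate 3. Gabra3 held 25.1% ± 0.599 of the FPKM of the GABA-A alpha genes. Gabra6, the alpha subunit of cerebellar granule cells, was at 0.00808 FPKM.

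Camk2a held 72.3% ± 0.226 of the CaMKII genes' FPKM and Camk2b 17.6% ± 0.639. All 19 cytoskeletal genes were high, from Nefh at 28.8 FPKM to Stmn3 at 411 FPKM, with Tubb4a at 397 FPKM and Actb at 352 FPKM.

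Neuropeptide genes spanned a wide range. Cck, cholecystokinin, read 320.3, 303 and 304 FPKM, Sst followed it, and Npy, neuropeptide Y, read 106, 119.9 and 98.8 FPKM. At the other end stood peptides of the hypothalamus: Pmch at 0.0545 FPKM, Gal at 0.118 FPKM, Hcrt at 0.123 FPKM and Oxt at 0.197 FPKM. Transmitter genes showed the same division. Slc32a1, the vesicular GABA transporter, read 39.8 FPKM. Genes of neurons whose cell bodies lie in the brainstem were near 0, with Slc6a3, the dopamine transporter, at 0.0246 FPKM, Slc6a4, the serotonin transporter, at 0.0234 FPKM, Dbh at 0.0865 FPKM and the glycine transporter Slc6a5 at 0.00436 FPKM. Th and Chat, of catecholamine and acetylcholine synthesis, read 0.695 and 0.637 FPKM.

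Immediate early genes are transcribed within minutes of neuronal activity. Their list of 11 summed to 385, 434 and 685 FPKM, and 10 of 11 were highest in replicate 3. Of all genes at 1 FPKM or more, 36.6% were highest in that library. Arc, which acts at synapses, read 112, 125 and 252 FPKM. The transcription factors Fos, Junb and Nr4a1 read 14.2, 17.8 and 28.7 FPKM, 35.1, 36.9 and 64.9 FPKM and 37.4, 41.1 and 76.96 FPKM. In each of these 4, replicate 3 exceeded both other libraries. Egr1 read 90.04, 104 and 129 FPKM and Npas4 7.46, 10.9 and 11.1 FPKM. Fosb was the exception, with 3.15, 4.26 and 4.24 FPKM. The labels say nothing of the handling of the mice before dissection, and the source of this spread was not tested.

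Promoters of the list were searched because its members moved together. RefSeq windows of 250 bases before the start were present for 16497 of 22046 protein coding genes and for 7 of these 11. The palindrome TGACGTCA, the full cAMP response element, which reads the same on both strands, occurred in 2 of the 7 windows, Dusp1 and Btg2, and in 2.08% of all windows. Of the other lists searched, it occurred in 1 of 10 windows for inhibitory neurons and 1 of 8 for endothelium. No window of the striatal neuron, excitatory neuron, astrocyte, microglia or oligodendrocyte lists held it. The Dusp1 and Btg2 windows are shown with the element in capitals, from RefSeq for GRCm38.p6. Both are on the minus strand and written in the direction of transcription. The element begins 143 bases before the start in Dusp1 (chr17:26508473-26508722) and 166 bases in Btg2 (chr1:134079156-134079405).
Dusp1: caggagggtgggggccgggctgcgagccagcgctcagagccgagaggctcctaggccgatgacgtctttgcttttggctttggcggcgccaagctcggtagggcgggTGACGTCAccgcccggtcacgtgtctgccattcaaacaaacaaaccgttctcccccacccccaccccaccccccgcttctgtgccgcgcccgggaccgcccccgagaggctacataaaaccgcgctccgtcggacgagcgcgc
Btg2: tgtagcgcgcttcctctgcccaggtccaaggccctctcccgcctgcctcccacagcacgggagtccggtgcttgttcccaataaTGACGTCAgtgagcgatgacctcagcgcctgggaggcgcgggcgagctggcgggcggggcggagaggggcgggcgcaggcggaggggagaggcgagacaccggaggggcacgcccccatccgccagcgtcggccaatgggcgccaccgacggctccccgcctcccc
Dusp1, a phosphatase of MAP kinases, read 18.8, 20.1 and 30.8 FPKM, and Btg2, an inhibitor of proliferation, read 6.03, 5.83 and 9.06 FPKM. A match is a string of letters and shows no binding. Any part of the element in the levels of this list was not tested.

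Across all promoter windows the element was found more often in genes at higher levels: 0.775% of the windows of genes below 0.1 FPKM, 1.96% from 0.1 to 1 FPKM, 2.43% from 1 to 10, 3.09% from 10 to 100 and 7.23% at 100 FPKM or more (17 of 235 windows). The number of CG dinucleotides also differed between these classes of level, with medians of 2, 7, 16, 18 and 15 per window. The letters TATAAA, on either strand, were in 24.4% of the windows of genes below 0.1 FPKM, then in 10.7%, 5.77%, 5.34% and, at 100 FPKM or more, 8.51%. The element itself holds a CG, and the part of base composition in its share was not tested. The markers Gad1 and Cx3cr1 show a window rich and one poor in CG, given in capitals, with 17 and 4 of them (chr2:70561879-70562128, plus strand, and chr9:120068297-120068546, minus strand). Both windows are placed by the RefSeq start and lie inside the longer gene span of the deposited table.
Gad1: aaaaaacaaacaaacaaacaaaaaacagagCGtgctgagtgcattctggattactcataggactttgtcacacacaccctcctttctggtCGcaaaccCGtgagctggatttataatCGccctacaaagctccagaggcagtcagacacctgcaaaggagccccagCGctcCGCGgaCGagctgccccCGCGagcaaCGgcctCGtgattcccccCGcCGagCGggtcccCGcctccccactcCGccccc
Cx3cr1: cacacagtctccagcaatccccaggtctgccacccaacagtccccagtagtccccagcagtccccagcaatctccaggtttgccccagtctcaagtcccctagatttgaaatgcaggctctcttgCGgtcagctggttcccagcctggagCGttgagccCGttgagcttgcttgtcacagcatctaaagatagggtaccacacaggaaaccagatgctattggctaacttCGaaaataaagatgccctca
CG counts also differed between lists. The median was 3.5 for the 8 microglia genes with a window, 5 for the 8 astrocyte genes and 20 for the 7 immediate early genes.

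Of 1469 genes that the authors' table assigns to a transcription factor family, 815 (55.5%) reached 1 FPKM, and together all of them held 2.54% of the summed FPKM. Families differed in how many members were present: 369 of 576 zinc finger genes of the C2H2 type, 37 of 48 bZIP genes, 51 of 100 bHLH genes, 38 of 232 homeobox genes and 2 of 17 T-box genes. The highest members, chosen after their values were seen, were the thyroid hormone receptor Thra at 132, 126 and 122 FPKM, the immediate early gene Egr1, Zmiz2 at 92.1, 92.4 and 93.7 FPKM and Camta2 at 87.3, 83.8 and 86.8 FPKM. Zmiz2 varied little, with a CV of 0.882%, while Egr1 had one of 18.5%.

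Genes linked to neurodegeneration were all at 1 FPKM or more. Prnp, the prion protein, read 332, 327 and 317 FPKM, Clu, clusterin, 208, 201 and 186 FPKM and App, the amyloid precursor, 140.1, 138 and 128 FPKM. Mapt, tau, read 72.6 FPKM. Genes used as signs of glial activation or senescence were lower: Serpina3n at 11.4, 10.9 and 7.70 FPKM and C4b at 5.37, 6.26 and 5.77 FPKM, with Cst7 at 0.148 FPKM, the cell cycle inhibitor Cdkn2a at 0.126 FPKM and Lcn2 at 0.0819 FPKM. Proliferation genes were near 0, with Mki67 at 0.0865 FPKM and Top2a at 0.0606 FPKM. Dcx and Sox11, of newborn neurons, read 2.63, 2.40 and 3.18 and 1.54, 1.43 and 1.79 FPKM.

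Genes of other organs gave a measure of the lower end of the scale. Of 17, 1 reached 1 FPKM: Acta1, skeletal muscle actin, at 8.38, 9.08 and 9.38 FPKM. Of these genes, 12 were below 0.1 FPKM, and Umod of kidney, Tnp1 of testis, Ins2 of pancreas and Krt5 of skin were listed at 0 in every library. Alb of liver read 0.00456 FPKM. Of 1135 olfactory receptor genes, 125 were above 0 in some library and 1, Olfr287, reached 1 FPKM, at 1.30 FPKM. None of 207 vomeronasal type 1, 122 type 2 and 35 bitter taste receptor genes did. The Y chromosome had 8 of 1570 genes at 1 FPKM or more, among them Ddx3y at 8.45, 9.56 and 9.25 FPKM and Eif2s3y at 8.28, 4.71 and 9.33 FPKM, while Xist, the RNA of the inactive X, was at 0.00175 FPKM. Both Y genes exceeded Xist in every library, a pattern known from male tissue.

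Protein coding genes held 92.1% ± 0.571 of the summed FPKM and 97.5% of the reads. Because FPKM divides by length, short models weigh more in it. The 6793 gene models under 200 bases held 2.61% ± 0.520 of the FPKM but 0.0493% of the reads, and 323 of them reached 1 FPKM. Pseudogenes held 1.97% of the FPKM, rows of type miRNA 1.64% ± 0.590, mitochondrial ribosomal RNA 1.63% ± 0.0575 and long noncoding genes 1.45%. The miRNA share was 1.18%, 2.31% and 1.45% in replicates 1, 2 and 3. Most of it in each library came from the single row Gm23935, described below. By reads, miRNA rows fell to 0.0270% and long noncoding genes stayed at 1.34%.

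**Figure D4:**
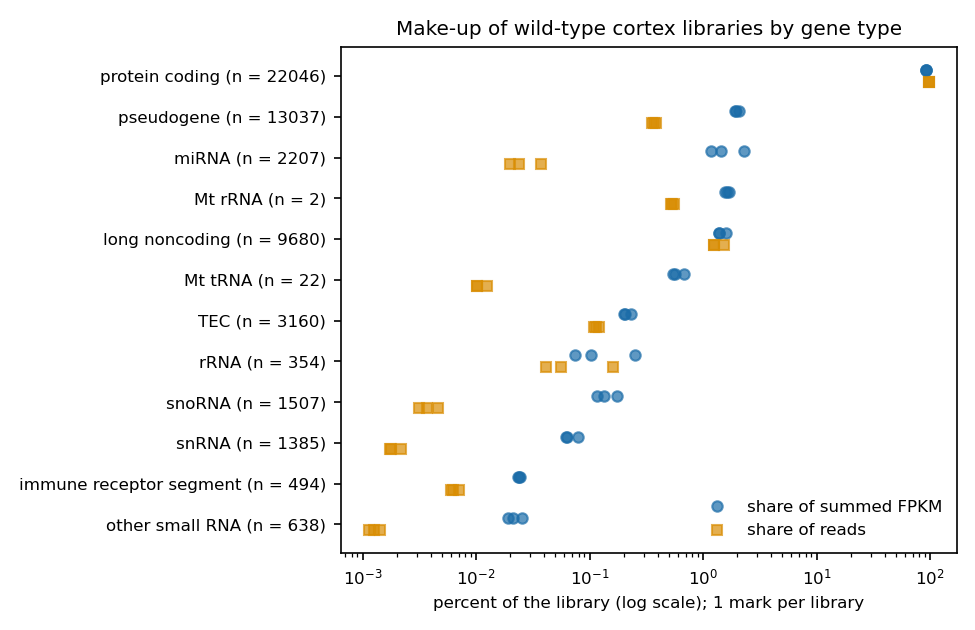
Percent of each wild-type library (horizontal log axis) held by 12 gene types, with the number of rows of each type, as a share of summed FPKM (circles) and of reads (squares), 1 mark per library. Circles and squares nearly coincide for protein coding and long noncoding genes and lie far apart for miRNA, snoRNA and mitochondrial tRNA rows.

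The highest noncoding row outside the mitochondrial genome was Gm23935, of type miRNA and 4 in rank, with 2474, 5623 and 2806 FPKM from 4406, 9837 and 5304 reads over 57 bases. Its sequence is shown since 2 other rows of the table are identical to it, Gm24270 on chromosome 9 and Gm24245 on chromosome 4. It lies on chr16:11144125-11144181, plus strand, in mm10, and is read from GENCODE M21.
Gm23935: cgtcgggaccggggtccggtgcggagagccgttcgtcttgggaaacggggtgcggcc
Gm24270 read 43.8, 84.6 and 23.3 FPKM, and Gm24245 was listed at 0 in every library, so one sequence is represented by 3 very different levels. A ribosomal RNA row, CT010467.1 (chosen after its values were seen), read 167, 659 and 222 FPKM, highest in replicate 2 as Gm23935 was. Whether the 2 signals have one source was not tested.

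Libraries from a kit of this kind are built from longer RNA, so a row of type miRNA counts reads over a hairpin's position and not the mature miRNA. RefSeq for GRCm38.p6 matched 1034 of 2207 such rows. The mature sequences of the highest matched rows are shown with the seed, bases 2 to 8, in capitals. They lie on the plus strand at chr17:23823339-23823358, chr3:157544285-157544306, chr11:75173723-75173744 and chr11:75173443-75173464, in the order shown. Mir212 was added after its values were seen, since miR-132-3p and miR-212-3p have the same seed.
miR-5125: uCUGCCUGggauuuccuugu
miR-186-5p: cAAAGAAUucuccuuuugggcu
miR-132-3p: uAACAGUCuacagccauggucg
miR-212-3p: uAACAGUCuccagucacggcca
Mir5125 read 138, 128 and 262 FPKM, from 340, 311 and 687 reads, and was highest in replicate 3. Mir186 read 36.5, 32.6 and 39.1 FPKM, Mir132 23.3, 23.7 and 27.9 FPKM and Mir212 16.9, 23.99 and 23.5 FPKM, each from fewer than 100 reads per library. The hairpins of Mir132 and Mir212 (chromosome 11, 75173682 to 75173747 and 75173388 to 75173478, plus strand) lie inside the span of the noncoding gene 1700016P03Rik (chromosome 11, 75172560 to 75177633, plus strand). That gene, known as their host, read 9.35, 11.02 and 22.8 FPKM, and was highest in replicate 3 like the immediate early genes. miR-132 is known in neurons as a miRNA induced by activity.

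Long noncoding genes were led by 2900097C17Rik at 280.0, 276 and 255 FPKM, a gene with 39.5% of its windows shared with others. Meg3, an imprinted RNA expressed from the maternal chromosome, read 131, 128 and 202 FPKM, and Malat1, a nuclear RNA, read 71.8, 58.4 and 90.6 FPKM. Both were highest in replicate 3. 6330403K07Rik read 149.7 ± 7.96 FPKM and the imprinted Peg13 88.6 ± 3.52 FPKM, with CVs of 5.32% and 3.97%. Small nucleolar and spliceosomal RNAs were low: the highest snoRNA, Snord91a, read 45.8, 39.6 and 50.9 FPKM and the highest snRNA row, Gm25772, 9.72, 9.89 and 22.1 FPKM from 17, 17 and 41 reads.

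The highest pseudogenes were near copies of expressed genes. Gm10123 shares 100% of its windows with Ppia, cyclophilin A, and read 146, 327 and 109.8 FPKM, against 172, 119 and 147 FPKM for Ppia itself. Mpc1-ps read 106, 95.7 and 93.1 FPKM and its parent Mpc1, a mitochondrial pyruvate carrier, 10.5, 10.6 and 11.03 FPKM. Rpl17-ps10 and Rpl17-ps3 read 129 and 91.4 FPKM, and Rpl17 53.1 FPKM. In each of these families a pseudogene exceeded its parent in the mean, and how reads were divided between copies is uncertain.

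Coding genes with most of their sequence shared were lower and more variable than the others. Of 8481 protein coding genes with 0% of windows shared, 13.7% were listed at 0 and 55.3% reached 1 FPKM. With little sequence shared, over 0 to 5%, these were 12.0% and 66.1% of 6400 genes, so the shares did not change steadily from class to class. Of 828 genes with over 90% shared, 78.4% were listed at 0 and 3.14% reached 1 FPKM. The median CV of genes at 1 FPKM or more was 6.70%, 5.72% and 22.4% in these 3 classes. The classes also differ in the families they hold, and the part of shared sequence was not tested.

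The spread between libraries depended on level. For protein coding genes the median CV was 9.80% from 1 to 3 FPKM, 6.51% from 3 to 10, 4.96% from 10 to 30, 4.87% from 30 to 100 and 5.52% at 100 FPKM or more. Counting error alone, from the recovered reads, would give medians of 6.04%, 3.40%, 2.15%, 1.35% and 0.787%. Counting error was thus nearest to the measured spread in low genes and smallest against it in high genes. In 82.3% of all genes at 1 FPKM or more the CV exceeded it. Over all 13474 genes at 1 FPKM or more the median CV was 7.001% and the median SD of log2(FPKM + 0.5) was 0.0915. Over 2 libraries that SD was 0.0541 without replicate 3, 0.0884 without replicate 1 and 0.0874 without replicate 2. An SD over 2 values is not on the scale of one over 3, so these are set against each other. In replicate 3, 36.6% of genes had their highest value and 42.8% their lowest, leaving 20.6% in between.

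The genes with the smallest CV at 10 FPKM or more were Nlgn2, the adhesion protein neuroligin 2 of inhibitory synapses, at 64.3 FPKM with a CV of 0.0177%, the proteasome subunit Psmd13, the deubiquitinase Usp22, Magee1, the calcium channel subunit Cacna2d1, Smg5, Fam216a, Dgcr2, Akirin2 and Lonrf2. In 10 of 10 the CV was below what counting alone gives, 0.922% for Nlgn2. They are the extreme of 4679 coding genes at that level, and values below counting error do not rank genes by steadiness.

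At the other end stood Gapdh, the glycolytic enzyme often used as a reference gene, with 2.66, 24.6 and 3.66 FPKM and a CV of 120.1%. Replicate 2 alone was high. Gapdh was the lowest of the 15 listed glycolysis genes, whose median member was 173 FPKM. It shares 24.6% of its windows with the pseudogene Gm7336, which read 14.5, 11.3 and 15.7 FPKM. Treatment of reads with several matches is not given in the sources used here. The level of Gapdh is therefore uncertain, and the part of shared sequence in it was not tested. Other reference genes varied less: Actb read 371, 353 and 332 FPKM, Hprt 83.1, 87.97 and 84.3 FPKM, Ywhaz 238, 232 and 226 FPKM and Sdha 92.9, 94.1 and 86.2 FPKM. Sumo2 read 6.73, 6.25 and 19.6 FPKM. Its copy Gm10241, with 100% of its windows in Sumo2, read 103, 112 and 59.1 FPKM. Gm11808 read 60.97, 21.7 and 24.4 FPKM, and Rps27 read 58.1, 25.6 and 20.96 FPKM beside its copy Rps27rt at 91.6, 177 and 144 FPKM.

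Gm21887 and Gm47283, on X and Y, share 482 windows and read 22.7, 13.4 and 87.2 and 7.46, 8.001 and 20.9 FPKM, both highest in replicate 3. Of the 10 largest CVs, 4 genes had little shared sequence: Drd2, Adora2a, Syndig1l at 18.8, 21.02 and 4.71 FPKM and Lrrc10b at 31.6, 27.6 and 7.01 FPKM. All 4 were lowest in replicate 3, and Drd2 and Adora2a are members of the striatal list. Among the 50 largest CVs of the 4679 coding genes at 10 FPKM or more were 9 of the 10 striatal genes. Drd1 was below that level. Also among these 50 were 4 of the 11 immediate early genes. Of those 11, Fosb, Btg2 and Npas4 were below that level too. Synaptic vesicle genes lay at the low end of the plot of CV against level.

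**Figure D5:**
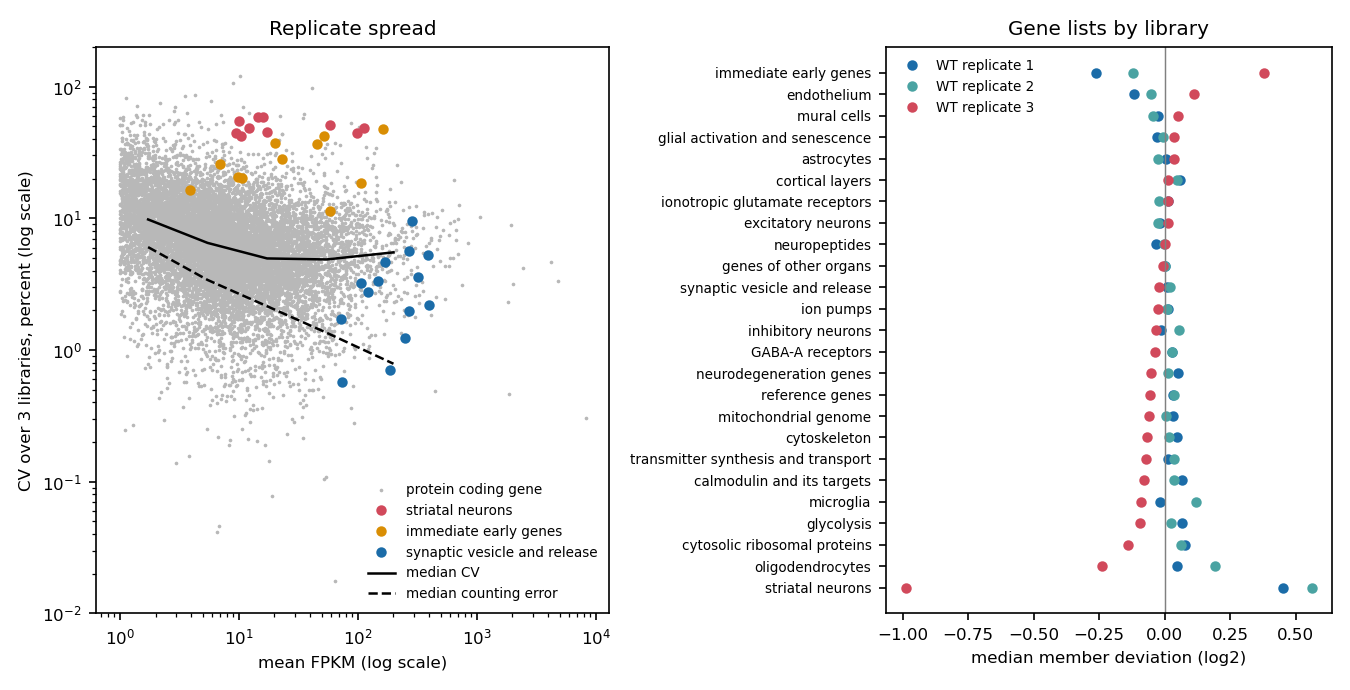
Left, CV over the 3 wild-type libraries (vertical log axis) against mean FPKM (horizontal log axis) for protein coding genes at 1 FPKM or more, with 3 gene lists in colour, the median CV per level class as a solid line and the median counting error as a dashed line. Right, the median over the members of each list with 8 or more members of log2(FPKM + 0.5) in a library minus the mean of the 3 libraries, where striatal neurons and immediate early genes lie farthest from 0 in replicate 3, at -0.99 and 0.38.

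Replicate 3 also differed by gene length. Its log2 level minus the mean of replicates 1 and 2 had a median of -0.19 for coding genes with models under 1000 bases, -0.12 from 1000 to 2000 bases, -0.04 from 2000 to 4000, 0.01 from 4000 to 8000 and 0.01 above. The median difference between replicates 1 and 2 stayed within 0.02 of 0 in the same classes. Replicate 3 was below the mean of replicates 1 and 2 in 78.7% of coding genes under 1000 bases. From 1000 to 2000 bases that share was 73.2%. Genes of cytosolic ribosomal proteins summed to 7001, 6850.1 and 5827 FPKM. Of these, 70 of 82 were lowest in replicate 3, against 42.8% of all genes at 1 FPKM or more. Most were abundant, as Rps15 at 401, 361 and 324 FPKM, Rps3a1 at 238, 251 and 214 FPKM and Rpl36 at 224, 215 and 173 FPKM. Those below 1 FPKM were Rpl24 at 0.661 FPKM, the muscle form Rpl3l at 0.224 FPKM, Rpl39l at 0.0259 FPKM, and Rpl10l, a testis form, listed at 0. Rpl24 is needed in every cell, and 51.8% of its windows are shared with other genes. The part of gene length in the lower values of replicate 3 was not tested.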

How the data were processed

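Total RNA from Trizol extraction went into an Illumina TruSeq RNA kit, per the labels' protocols. Bowtie and mm10 are named in the submitters' processing notes, without a version. For the counting program, strand, multiply matching reads and the annotation release, the sources used here give nothing. The authors deposited FPKM per gene, and 3 columns of the other group were not used. Multiplying FPKM by gene length gave whole reads for 100% of values above 0 in each library, within 0.001. These reads (31612849, 30935326 and 32707769 in the 3 libraries) set the counting error. The recovery and the CV were tested on simulated data.

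Means, SDs and CVs over 3 libraries were computed with Python 3.11.15, numpy 2.4.6 and pandas 2.3.3, and plots drawn with matplotlib 3.10.9. Log values are log2(FPKM + 0.5). Genes at a mean of 1 FPKM or more entered the summaries of spread. Shared sequence is the percent of 50-base windows of a gene's GENCODE M21 transcripts found in another gene, for 54409 of 54532 genes. Symbols on more than one row (203 rows) were read from the higher row.

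Named genes were the 6 markers, Fam69c, the 20 highest nuclear coding genes, the mitochondrial genes, the 5 highest of each noncoding type, the 10 largest and 10 smallest CVs at 10 FPKM or more, and from each list the 4 highest, the lowest and those under 0.1 FPKM. Others, such as copies, transcription factors and further list members, were chosen after their values were seen. Members and lists were chosen with earlier results of these data known. Some members of the lists are not reported here. With 1 group, no comparison was tested. Alternatives were TPM, other minimums, reads, models of 200 bases or longer, removal of the mitochondrial genome and leaving out each library.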

Additional observations from a re-analysis of the deposited data

How the results depend on the processing

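Of 31 alternatives of the 5 summary values, 21 stayed close. For shares this meant within the SD between libraries, and for the count of genes within a factor of 1.5 of 13474. For the median SD of log2 values it meant within 0.0196, the SD of its own values with 1 library left out. With 1 of 3 libraries left out, the protein coding and mitochondrial shares must stay within the SD between libraries. The share of the 100 highest genes was 25.7% of the FPKM with models of 200 bases or longer, 18.1% without the mitochondrial genome and 16.7% of reads. The protein coding share was 94.6%, 93.6% and 97.5% under the same 3 settings, and the mitochondrial share was 11.6% with models of 200 bases or longer and 3.78% of reads. These differ by construction, since reads are not divided by length. The median SD of log2 values was 0.125 with TPM made from the FPKM, where more and lower genes enter, and from 0.0541 (without WT replicate 3) to 0.0884 with 1 library left out. Genes at the minimum numbered 17717 by TPM, 12794 in every library, 15674 at 0.5 FPKM and 13419 to 13503 with 1 library left out. Each of the 18 marker values with a library left out stayed within 1 SD. A mean of 3 values must do so when 1 is left out, so this shows nothing about robustness. No paired analysis was possible because the values come from 1 group and from no test.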
